A study of Tabanus nipponicus with 3 samples.

Results

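The enzymes described here break down amino acids, fix or release ammonia, and make or break down uric acid. They were followed in the midgut, the digesting and absorbing section of the gut, of the blood-feeding horse fly Tabanus nipponicus. The members are the 32 unigenes, out of 8039 in the deposited table, whose best protein hit carries one of 17 enzyme names in its first title. The names cover omega-amidase, glutamine synthetase, glutamate synthase and dehydrogenase, aminotransferases, enzymes of proline, phenylalanine, tryptophan, serine and branched-chain amino acids, arginase, and the purine route from purine nucleoside phosphorylase through xanthine dehydrogenase and uricase to allantoin enzymes. Unigenes are transcripts put together from the reads alone, for lack of a genome. Members were picked by name and not by level, though the names were chosen with earlier results of these data known.

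RNA was sequenced from 3 wild-caught adult females, labelled wild type, each dissected for 1 midgut and 1 library, and no agent was applied per the labels. They form 1 group and are called fly 1, fly 2 and fly 3, so levels and the spread between individuals are described and no conditions are compared. The labels give neither age nor feeding state. Values are FPKM, a fragment number per transcript length and sequencing depth, so levels of different unigenes can be set side by side. Depth was 29308867 to 33797869 reads per fly, as recovered from the values.

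Digestion of protein leaves an animal with more amino acids than it needs for building, and their breakdown frees ammonia, which is toxic. In mosquitoes that have fed on blood, ammonia is bound into glutamine by glutamine synthetase and its nitrogen leaves partly as uric acid, which xanthine dehydrogenase makes. Aminotransferases move the amino group from one carbon skeleton to another, and glutamate dehydrogenase releases it as ammonia.

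The names were taken from other flies. All 32 best hits were in Diptera, 17 of them in the black soldier fly Hermetia illucens, and the members spread over 10 hit species. Identity to the hit ran from 50.4% to 91.6%, with a median of 72.2% against 65.5% over all unigenes. Of the 32, 16 unigenes aligned over at least 90% of their hit and 5 over less than 50%. One member, folylpolyglutamate synthase (TRINITY_DN4628_c0_g1_i16), entered through part of its name and acts on folate. No unigene matched arginase, phenylalanine-4-hydroxylase, ornithine aminotransferase, alanine aminotransferase or, apart from that name, glutamate synthase. A name that matched no unigene says nothing about the enzyme's presence in the gut.

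The members were mostly moderately expressed, and a single unigene held most of their total in fly 3. Their summed share of the FPKM total was 0.211% for fly 1, 0.309% for fly 2 and 0.822% for fly 3, averaging 0.447% ± 0.328 (SD, n = 3). Without fly 3 the mean share was 0.260%. An omega-amidase unigene (TRINITY_DN8655_c0_g1_i2) made up 0.394%, 27.7% and 68.2% of the members' FPKM in flies 1, 2 and 3. Without it the other 31 held 0.210%, 0.223% and 0.261% of all FPKM. The median of the members' mean FPKM was 21.1, against 8.69 over all unigenes, and 21 of the 32 lay above the latter. An FPKM of at least 1 was reached in all 3 flies by 25 members (78.1%), against 81.6% of all unigenes.

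**Figure D1:**
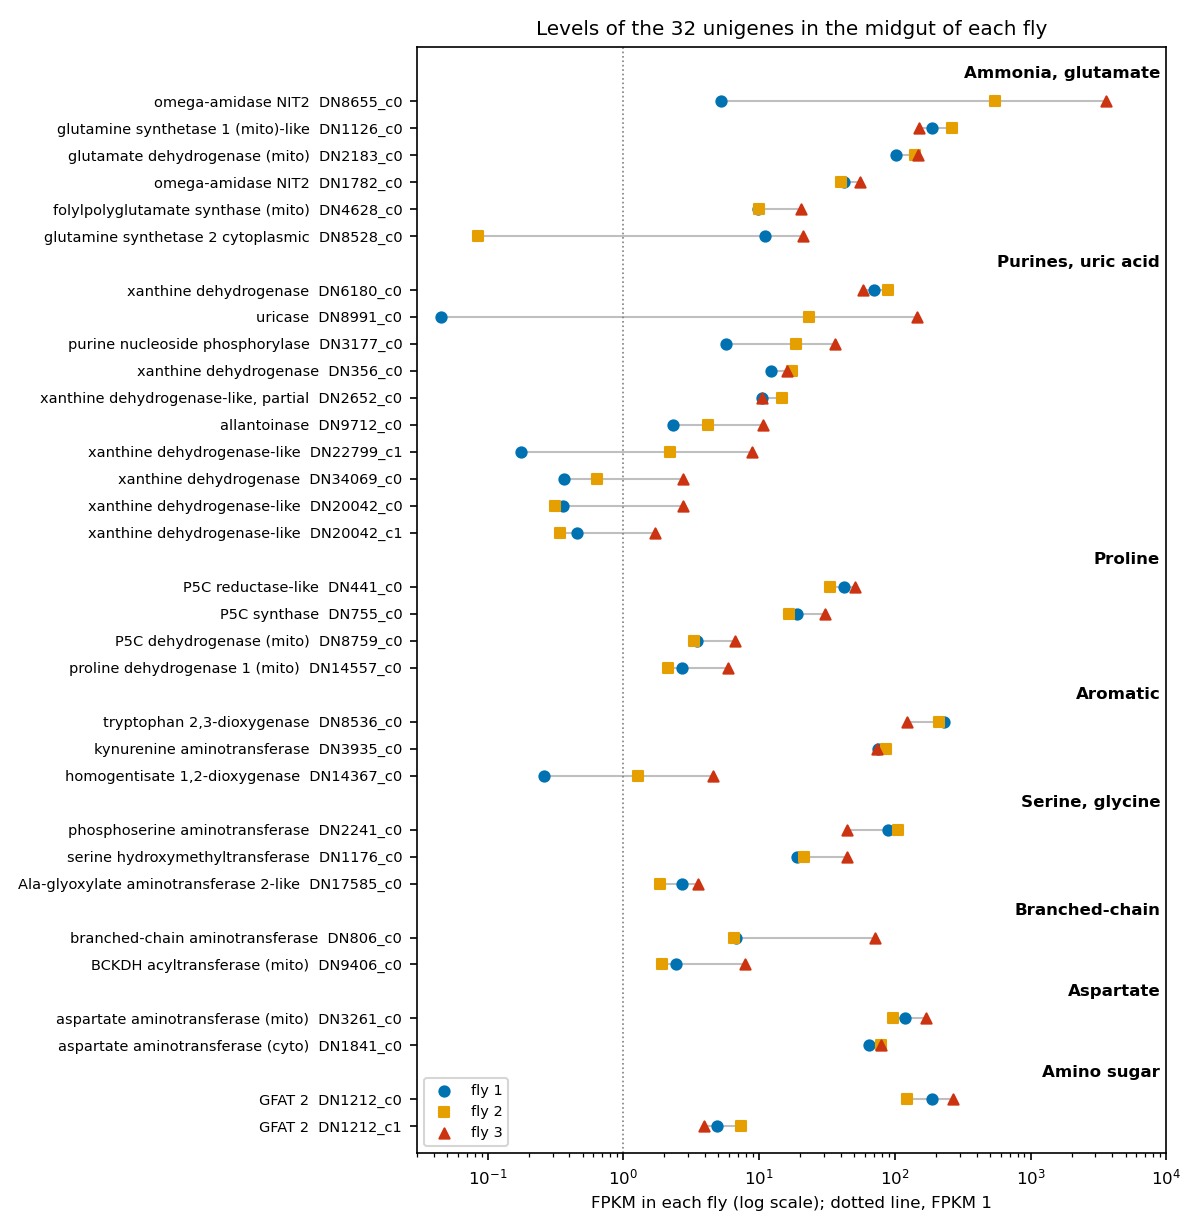
FPKM of each of the 32 unigenes in fly 1 (circles), fly 2 (squares) and fly 3 (triangles) on a log axis, grouped by role; grey lines join the lowest and the highest fly, and P5C, GFAT and BCKDH stand for pyrroline-5-carboxylate, glutamine--fructose-6-phosphate aminotransferase and branched-chain alpha-keto acid dehydrogenase. Most lines are short, while omega-amidase DN8655 runs from 5.23 to 3596 FPKM and uricase from 0.0450 to 146.

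Omega-amidase, known from mammals, splits the amide from the keto acids that glutamine and asparagine leave behind after transamination, and so frees ammonia. The unigene named omega-amidase NIT2 (TRINITY_DN8655_c0_g1_i2, 934 bases, 57.1% identity to a protein of the stable fly Stomoxys calcitrans over residues 7 to 281 of 281) was at 5.23 FPKM in fly 1, 544 FPKM in fly 2 and 3596 FPKM in fly 3. The 3 flies lay far apart, and in fly 3 it alone held 0.560% of all FPKM. It rested on 78, 8579 and 49224 sequenced fragments, so fly 3 exceeded fly 1 687-fold, with an exact binomial 95% interval of 551 to 869.7 for counting error only. On the scale of FPKM + 1 the highest fly exceeded the lowest 577-fold. Of the 5256 unigenes averaging 5 FPKM or more, no other differed as much between its highest and lowest fly.

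A second unigene of the same name (TRINITY_DN1782_c0_g1_i9, 71.9% identity over residues 21 to 281 of 281) was at 41.8, 40.2 and 55.5 FPKM in flies 1, 2 and 3. All flies lay close to its mean of 45.8 ± 8.39 FPKM (SD, n = 3). The first unigene stood at 0.125 times the second in fly 1, 13.5 times in fly 2 and 64.8 times in fly 3. Both cover nearly the whole length of a NIT2 protein, but of different species, Condylostylus longicornis for the second. Their residue numbers therefore need not correspond.

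Glutamine synthetase, which joins ammonia to glutamate, was also represented by 2 unigenes, 1 of which differed far more between flies than the other. Drosophila has a mitochondrial and a cytosolic form of this enzyme. The form named mitochondrial-like (TRINITY_DN1126_c0_g1_i3, 85.6% identity) was the second most abundant member, at 188, 262 and 151 FPKM in flies 1, 2 and 3. Fly 2 was its highest and fly 3 its lowest, around a mean of 201 ± 56.6 (SD, n = 3). Median-of-ratios scaling, which sets the typical unigene equal in all flies, put it at 193, 313 and 119, or 2.61-fold apart in FPKM + 1. The form named cytoplasmic (TRINITY_DN8528_c0_g1_i7, 87.5% identity) was at 11.1 FPKM in fly 1, 0.0847 FPKM in fly 2 and 20.9 FPKM in fly 3. The value in fly 2 rested on 2 fragments, with an exact Poisson 95% interval of 0.0103 to 0.306 FPKM, and fly 3 exceeded it 246-fold (counting interval 67.7 to 2039.5).

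Glutamate dehydrogenase (TRINITY_DN2183_c0_g1_i26, 91.6% identity), which turns glutamate into ammonia and 2-oxoglutarate and back, was at 102, 141 and 149 FPKM. Summed glutamine synthetase exceeded it 1.97-fold, 1.87-fold and 1.15-fold in flies 1, 2 and 3, which averages 0.69 ± 0.43 on the log2 scale (SD, n = 3). The direction was the same in 3 of 3 flies, with an exact sign-flip permutation p of 0.25 (two-sided), the smallest that 3 flies allow, and 0.375 after Benjamini-Hochberg adjustment over the 3 ratios that could be formed. Folylpolyglutamate synthase was at 9.81, 9.96 and 20.3 FPKM.

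**Figure D2:**
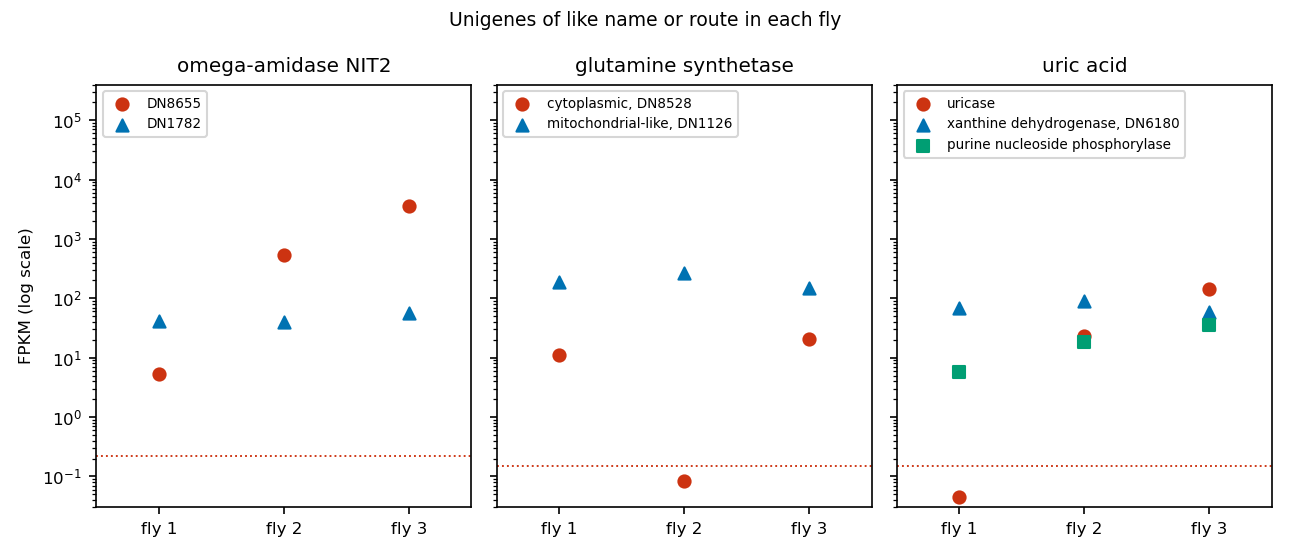
FPKM in each fly on a log axis for the omega-amidase unigenes, the glutamine synthetase unigenes, and uricase beside xanthine dehydrogenase and purine nucleoside phosphorylase; the dotted line is the level of 3 fragments for the unigene drawn as red circles at the shallowest depth. In each panel the red unigene spans a wider range than the blue one, and only glutamine synthetase 2 in fly 2 and uricase in fly 1 lie under the line.

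In uric acid handling the later enzyme differed far more between flies than the earlier one. Xanthine dehydrogenase oxidises hypoxanthine to xanthine and xanthine to uric acid. Uricase then oxidises uric acid on the way to allantoin, and in Drosophila it is known as an enzyme of the Malpighian tubules, the excretory organs that join the gut behind the midgut. The leading xanthine dehydrogenase unigene (TRINITY_DN6180_c0_g1_i3, 4384 bases, 60.3% identity over residues 24 to 1345 of 1345) was at 69.9, 88.7 and 57.9 FPKM, a mean of 72.2 ± 15.5 (SD, n = 3). After median-of-ratios scaling the highest and lowest fly of this unigene were 2.29-fold apart in FPKM + 1. Uricase (TRINITY_DN8991_c0_g1_i5, 58.9% identity over residues 1 to 337 of 339) was at 0.0450 FPKM in fly 1, 23.2 FPKM in fly 2 and 146 FPKM in fly 3.

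The flies were widely separated for uricase, and the order of the flies was that of omega-amidase DN8655. Fly 1 held 1 uricase fragment, with an exact Poisson 95% interval of 0.00114 to 0.251 FPKM, against 545 in fly 2 and 2981 in fly 3. Fly 3 exceeded fly 2 6.31-fold (counting interval 5.76 to 6.92). In FPKM + 1 the highest fly exceeded the lowest 141-fold, the 11th largest difference of the 5256 unigenes. The summed xanthine dehydrogenase names exceeded uricase 2088-fold in fly 1 (counting interval 374 to 82373) and 5.37-fold in fly 2, and stood at 0.687 times uricase in fly 3. The mean log2 ratio was 4.30 ± 6.01 (SD, n = 3), higher in 2 of 3 flies, with an exact sign-flip permutation p of 0.5 and 0.5 after adjustment. Without fly 1 it was 0.94.

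Markers of other tissues that a dissected midgut could carry were read beside uricase. The 22 unigenes of the Malpighian tubule list, mostly organic ion transporters and potassium channels, summed to 261, 312 and 297 FPKM in flies 1, 2 and 3. That list holds names also used by gut cells. Of its 17 names averaging 5 FPKM or more, 3 were variable, against 9.42% of all unigenes at that mean. A solute carrier organic anion transporter family member 74D (TRINITY_DN1256_c0_g1_i6) was at 0.297, 32.9 and 13.1 FPKM, lowest in fly 1 as uricase was. The other two were organic cation transporters, TRINITY_DN386_c0_g1_i42 at 21.6, 2.39 and 20.1 FPKM and TRINITY_DN9538_c0_g1_i8 at 2.62, 0.179 and 17.0, both lowest in fly 2. The 10 unigenes of the fat body list, which makes yolk and storage proteins and lipid carriers, summed to 7.08, 24.7 and 97.6 FPKM, and 8, 6 and 3 of them were below FPKM 1 in flies 1, 2 and 3. Among them apolipophorins (TRINITY_DN9332_c0_g1_i15), carriers of lipid in the blood, were at 0.619, 13.8 and 64.1 FPKM. Each of the 6 fat body names averaging FPKM 1 or more was highest in fly 3, against 66.1% of all unigenes at that mean. After median-of-ratios scaling 5 of them were, against 39.3% of all unigenes. The 19 visceral muscle names, some of them non-muscle myosins, summed to 775, 777 and 1539.9 FPKM and the 4 hemocyte names to 3.65, 5.98 and 11.3. The 44 midgut names, some of them protease inhibitors that matched through part of their name, summed to 13464, 14385 and 9677 FPKM. The low sum in fly 3 came with trypsin Blo t 3-like (TRINITY_DN420_c0_g1_i4) at 4158, 6159 and 2089.8 FPKM and carboxypeptidase B-like (TRINITY_DN818_c0_g1_i9) at 2117, 2957 and 657. Of the 38 midgut names averaging FPKM 1 or more, 19 were highest in fly 3, some of the inhibitors among them, against 66.1% of all unigenes at that mean. The fat body, visceral muscle and hemocyte sums all had the order of omega-amidase and uricase, though flies 1 and 2 were nearly equal for muscle. The part of these tissues in the members' values was not tested. In whole tissue, fewer cells of a type and less RNA per cell cannot be told apart.

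Other steps of the purine route differed less. Purine nucleoside phosphorylase (TRINITY_DN3177_c0_g1_i11), which frees the purine base from its sugar, was at 5.66, 18.6 and 35.9 FPKM, lowest in fly 1 and highest in fly 3. Allantoinase (TRINITY_DN9712_c0_g1_i22), which opens the ring of allantoin, was at 2.33, 4.16 and 10.6 FPKM in the same order of flies. The other 6 xanthine dehydrogenase names had means of 0.831 to 15.2 FPKM. Of the summed level of all 7, the leading unigene held 74.4%, 71.3% and 57.7% in flies 1, 2 and 3.

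These names need not stand for 7 genes. A second unigene that covers most of the protein (TRINITY_DN34069_c0_g1_i7, residues 34 to 1345 of 1345) was at 0.367, 0.636 and 2.75 FPKM. The remaining 5 aligned over 22.7% to 73.2% of their hits, and 2 of them share DN20042 in their identifiers. The number of genes behind them cannot be told here. How reads of similar copies were divided among them is not known, and the value of each is uncertain. Of the 7, the 4 lowest were highest in fly 3, and the leading 3 were highest in fly 2. Among all unigenes averaging FPKM 1 or more, 66.1% were highest in fly 3 and 12.4% in fly 2. The 4 lowest rested on 3 to 24 fragments in fly 1.

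Proline enzymes were moderate to low, and their highest fly stood 1.52-fold to 2.19-fold above the lowest in FPKM + 1, widest for proline dehydrogenase. Proline is a fuel of flight in several insects, among them tsetse flies, and is made from and broken down to glutamate through pyrroline-5-carboxylate. Pyrroline-5-carboxylate reductase-like (TRINITY_DN441_c0_g1_i15), the last step of synthesis, was at 41.8, 33.1 and 50.9 FPKM. The first step, delta-1-pyrroline-5-carboxylate synthase (TRINITY_DN755_c0_g1_i13), was at 19.0, 16.7 and 30.7 FPKM. The enzymes of breakdown were lower. Proline dehydrogenase 1 (TRINITY_DN14557_c0_g1_i5) was at 2.70, 2.14 and 5.88 FPKM and delta-1-pyrroline-5-carboxylate dehydrogenase (TRINITY_DN8759_c0_g1_i12) at 3.49, 3.31 and 6.58. Proline dehydrogenase stood at 0.0645, 0.0647 and 0.115 times the reductase, a mean log2 ratio of -3.67 ± 0.48 (SD, n = 3), lower in 3 of 3 flies with an exact permutation p of 0.25 and 0.375 after adjustment.

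Aromatic amino acids were represented by a strongly expressed start of tryptophan breakdown. Tryptophan 2,3-dioxygenase (TRINITY_DN8536_c0_g1_i9), which opens the ring of tryptophan, was at 228, 212 and 123 FPKM. Its FPKM was highest in fly 1, the single case among the 31 members averaging FPKM 1 or more (3.23%, against 21.6% of all unigenes). Flies 1 and 2 were close. Median-of-ratios scaling made fly 2 the highest for this unigene, with values of 234, 253 and 97.0 in flies 1, 2 and 3. The dioxygenase unigene aligned over 38.4% of its hit. Kynurenine aminotransferase (TRINITY_DN3935_c0_g1_i16), which leads to kynurenic acid, was at 75.2, 86.1 and 74.2 FPKM, a coefficient of variation of 8.38%, which was 27.9% after median-of-ratios scaling. Kynurenine formamidase-like (TRINITY_DN368_c1_g1_i8), the step between them and not a member, was at 579.7, 461 and 479 FPKM. Kynurenine 3-monooxygenase (TRINITY_DN21262_c0_g1_i6), the other branch, toward eye pigments, was at 31.2, 22.1 and 6.37 FPKM, so both dioxygenase and monooxygenase were lowest in fly 3.

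The tyrosine route was low at its member enzyme. Homogentisate 1,2-dioxygenase (TRINITY_DN14367_c0_g1_i6), which opens the ring in tyrosine breakdown, was at 0.258, 1.29 and 4.58 FPKM, on 7, 37 and 114 fragments. The following steps, probable maleylacetoacetate isomerase 2 (TRINITY_DN2156_c1_g1_i1) and fumarylacetoacetase, were higher, the isomerase at 14.1, 13.2 and 27.5 FPKM. Pterin-4-alpha-carbinolamine dehydratase (TRINITY_DN9499_c0_g2_i4), which recycles the cofactor of the aromatic amino acid hydroxylases, was at 88.3, 62.7 and 90.8 FPKM. Aromatic-L-amino-acid decarboxylase (TRINITY_DN4946_c0_g1_i8), which makes dopamine and serotonin, was at 10.4, 1.39 and 24.5 FPKM, lowest in fly 2.

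Serine enzymes formed a contrast within one short route. Serine is made from a glycolysis product by a dehydrogenase, an aminotransferase and a phosphatase in turn. The member of this route, probable phosphoserine aminotransferase (TRINITY_DN2241_c0_g1_i1), was at 89.5, 106 and 44.4 FPKM, lowest in fly 3. D-3-phosphoglycerate dehydrogenase (TRINITY_DN3667_c0_g1_i48), before it, was at 49.9, 63.3 and 48.1 FPKM. Phosphoserine phosphatase (TRINITY_DN3198_c0_g1_i25), after it, was at 26.9, 29.8 and 166 FPKM, highest in fly 3. Serine hydroxymethyltransferase (TRINITY_DN1176_c0_g1_i8), which turns serine into glycine and charges folate, was at 18.9, 21.3 and 44.1 FPKM. Alanine--glyoxylate aminotransferase 2-like (TRINITY_DN17585_c0_g1_i5) was low, at 2.68, 1.87 and 3.55 FPKM.

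Branched-chain amino acid breakdown held 1 variable member, the enzyme of its first step. The branched-chain-amino-acid aminotransferase (TRINITY_DN806_c0_g1_i13, 77.8% identity) was at 6.78 FPKM in fly 1, 6.57 FPKM in fly 2 and 71.2 FPKM in fly 3. Flies 1 and 2 were alike and fly 3 exceeded fly 1 10.5-fold (counting interval 9.32 to 11.9). The acyltransferase of the branched-chain alpha-keto acid dehydrogenase complex (TRINITY_DN9406_c0_g1_i8), the next step, was at 2.45, 1.93 and 7.84 FPKM, and fly 3 exceeded fly 2 4.06-fold (counting interval 3.00 to 5.56). The 8 unigenes of later steps, not members, had a highest fly 1.05-fold to 1.51-fold above the lowest in FPKM + 1, and 1.20-fold to 1.92-fold after median-of-ratios scaling. The most abundant of them were probable 3-hydroxyisobutyrate dehydrogenase (TRINITY_DN2571_c0_g1_i3) at 93.2, 77.6 and 67.9 FPKM and 3-hydroxyisobutyryl-CoA hydrolase (TRINITY_DN76_c0_g1_i9) at 72.1, 85.8 and 66.9.

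The central aminotransferases were steady. Aspartate aminotransferase, which links aspartate with glutamate and takes part in shuttling reducing power into mitochondria, had a mitochondrial form (TRINITY_DN3261_c0_g1_i17) at 119, 96.8 and 168 FPKM. The cytoplasmic form (TRINITY_DN1841_c0_g1_i7) was at 64.9, 79.1 and 79.3 FPKM, and the mitochondrial form was higher in 3 of 3 flies, 1.83-fold, 1.22-fold and 2.12-fold. Glutamine--fructose-6-phosphate aminotransferase 2 makes amino sugar from glutamine, the first step toward chitin, the polymer of the peritrophic sheet around a meal. Its full-length unigene (TRINITY_DN1212_c0_g1_i13, 89.5% identity) was at 187, 122 and 268 FPKM, the third highest mean of the members at 192 ± 73.3 (SD, n = 3). A shorter unigene that shares DN1212 in its identifier (TRINITY_DN1212_c1_g1_i7, residues 1 to 259 of 677) was at 4.92, 7.29 and 3.95 FPKM.

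Large differences between flies were found in 5 members. The word variable is used here for a unigene that averages 5 FPKM or more and whose highest fly stands at least 4-fold above the lowest in FPKM + 1. Of the 23 members at that mean, 5 were variable (21.7%), against 9.42% of all 5256 unigenes at that mean. They were omega-amidase DN8655, uricase, cytoplasmic glutamine synthetase, the branched-chain aminotransferase and purine nucleoside phosphorylase. All 5 were highest in fly 3, as were 435 of the 495 variable unigenes in the whole table (87.9%). Their lowest fly was fly 1 for omega-amidase, uricase and the phosphorylase and fly 2 for the others. At that mean, 14 members differed at most 2-fold in FPKM + 1 (60.9%), against 69.7% of all unigenes. With median-of-ratios scaling 5 of 23 members were variable, against 7.63% of all unigenes. Leaving out fly 1 gave 4 of 24 members against 7.77%, fly 2 gave 4 of 24 against 5.45%, and fly 3 gave 3 of 22 against 3.08%. Beyond those values, 3 of the 32 members (9.38%) had fly 1 lowest, fly 2 between and fly 3 highest with each step at least 2-fold in FPKM + 1, against 1.78% of all unigenes, a description chosen after the values were seen. They were omega-amidase DN8655, uricase and a short xanthine dehydrogenase-like unigene (TRINITY_DN22799_c1_g3_i10) at 0.177, 2.20 and 8.86 FPKM, the first of these on 3 fragments. These shares carry no test, since the unigenes of 1 fly are not replicates and the names were chosen with earlier results known.

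**Figure D3:**
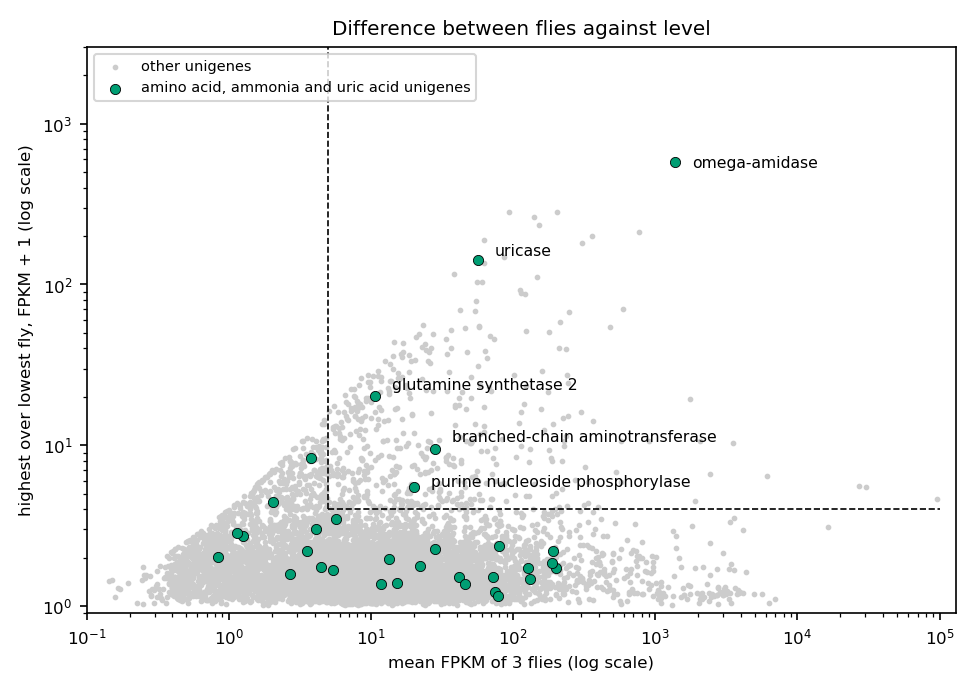
Ratio of the highest to the lowest fly in FPKM + 1 against mean FPKM, both on log axes, for the 32 unigenes (green) and all others (grey); dashed lines bound the variable unigenes, with a mean of at least 5 FPKM and a ratio of at least 4. Omega-amidase lies at the top with a ratio of 577, and 5 of the members lie inside the lines.

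Fly 3 was the highest fly for most members, as it was for most unigenes. Of the 31 members averaging FPKM 1 or more, 23 were highest in fly 3 (74.2%), against 66.1% of all unigenes at that level. Fly 2 was highest for 7 (22.6%), against 12.4%. The median member was higher in fly 3 than the mean of the other flies by 0.78 on the log2(FPKM + 1) scale, against a median of 0.42 over all unigenes. In fly 1 the median difference was -0.33 against -0.049, and in fly 2 -0.26 against -0.33. With median-of-ratios scaling, which sets the typical unigene equal in all flies, 18 of 30 members were highest in fly 3 (60.0%), against 39.3% of all unigenes. The median difference in fly 3 was then 0.31 against -0.0052, and that in fly 2 was 0.11. The median SD between flies of members was 0.56 on the log2 scale, against 0.38 over all unigenes, and 0.24 against 0.22 without fly 3.

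The other enzymes of these routes were read from 11 further lists that hold no member. They matched 89 unigenes, some by name only, such as enzymes that edit transfer RNA among the adenosine deaminases. Of the 66 averaging 5 FPKM or more, 10 were variable (15.2%), 8 of them highest in fly 3 and 2 in fly 1. Of all unigenes at that mean, 9.42% were variable, and 87.9% of those were highest in fly 3. Purine synthesis was highest in fly 3 for 6 of 7 unigenes, where 66.1% of all unigenes were, with a median difference of 1.27. After median-of-ratios scaling 4 of the 7 were highest in fly 3, against 39.3% of all unigenes. Amidophosphoribosyltransferase-like (TRINITY_DN3063_c0_g1_i34), its first committed enzyme, was at 3.71, 2.99 and 33.1 FPKM and adenylosuccinate synthetase (TRINITY_DN2385_c0_g1_i3) at 86.5, 46.4 and 181. Adenosine deaminase 2 (TRINITY_DN4009_c0_g1_i3), which turns adenosine into inosine, was at 137, 28.8 and 47.6 FPKM, highest in fly 1. The tRNA-specific adenosine deaminase 2 (TRINITY_DN679_c0_g1_i1) was at 254, 87.8 and 372 FPKM, and its highest and lowest fly were 2.79-fold apart in FPKM + 1 after scaling, so that it was then no longer variable.

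Of all unigenes averaging 5 FPKM or more 9.42% were variable, and of the 6 unigenes of amide nitrogen at that mean 1 was. It was glutaminase (TRINITY_DN6862_c0_g1_i1), which frees ammonia from glutamine, at 9.71 FPKM in fly 1, 0.211 FPKM in fly 2 and 13.7 FPKM in fly 3. Its lowest fly was fly 2, as for cytoplasmic glutamine synthetase. Probable isoaspartyl peptidase/L-asparaginase (TRINITY_DN2147_c0_g1_i6) was at 334, 188 and 124 FPKM, highest in fly 1 and not variable.

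Methyl group, glycine and sulfur enzymes included low unigenes with fly 1 lowest. Glycine N-methyltransferase-like (TRINITY_DN4123_c0_g1_i6), which uses up surplus methyl groups, was at 1.42, 11.4 and 15.4 FPKM. The glycine cleavage system H protein (TRINITY_DN898_c0_g1_i8), part of the complex that breaks glycine down, was at 2.80, 7.83 and 17.0 FPKM, and its highest and lowest fly were 3.74-fold apart in FPKM + 1 after scaling, so that it was then no longer variable. Cysteine dioxygenase type 1 (TRINITY_DN10691_c0_g1_i2), which starts cysteine breakdown, was at 0.993, 4.90 and 12.9 FPKM. The abundant unigenes of this group were closer together, with adenosylhomocysteinase-like 1 (TRINITY_DN4098_c0_g1_i24) at 171, 174 and 156 FPKM and S-adenosylmethionine synthase (TRINITY_DN2481_c0_g1_i6) at 67.3, 117 and 118. Lysine breakdown was read from alpha-aminoadipic semialdehyde synthase (TRINITY_DN372_c0_g1_i10) at 55.2, 64.5 and 27.2 FPKM and glutaryl-CoA dehydrogenase (TRINITY_DN7316_c0_g1_i10) at 35.5, 42.6 and 43.5.

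**Figure D4:**
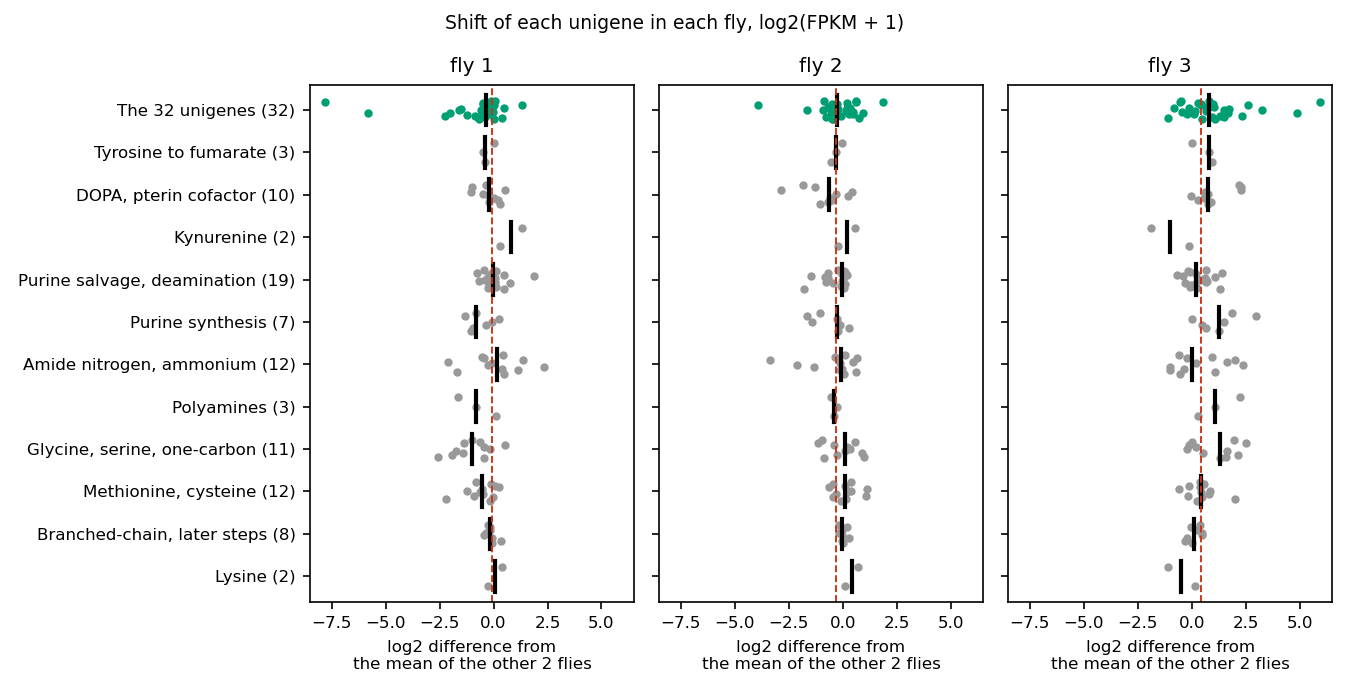
Difference of each unigene in a fly from the mean of the other 2 flies on the log2(FPKM + 1) scale, for the 32 unigenes (green) and the 11 lists of other enzymes (grey, with the number of unigenes), without a filter on low values; black bars are medians and the red dashed line is the median of all unigenes averaging FPKM 1 or more. In fly 3 the bar of purine synthesis (1.27) lies right of the line at 0.42, and those of the kynurenine and lysine lists, with 2 unigenes each, lie left of it.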

How the data were processed

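RNA sequencing libraries of 3 midguts were deposited as 1 table. The authors' values are FPKM, per the file headers, scaled to the unigenes of the table. The table also gives unigene length, the best protein hit and the percent identity of the alignment, per the file headers. The sources used here do not state the aligner, counting tool or protein database. Fly 3 is the library numbered 4 in the table and was matched through its description in the labels.

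Read numbers were recovered by multiplying FPKM by length and dividing by the lowest nonzero product of each fly, and 97.1% to 97.3% of unigenes came out whole within 0.001. Fragments were taken as these reads at 2 mates each. Intervals cover counting error only. No count model was used, since 1 group allows no contrast. Members, role lists and pathway lists were chosen by name, with earlier results of these data known. Values in every fly are given for the leading member of each role, the 15 most abundant members and all variable ones, and of each pathway list the 2 most abundant and the variable unigenes could be named. A few others were named after their values were seen. Logs used log2(FPKM + 1), which understates differences of low unigenes. Of 7 planned ratios, 4 lacked a matched name and 3 were tested within flies by exact sign-flip permutation. The variable call was tested on simulated data that held counting error and set fold changes. They held no other variation between flies, so they do not test the call on differences between individuals. Tools were Python 3.11.15, numpy 2.4.6, pandas 2.3.3, scipy 1.17.1 and matplotlib 3.10.9. Alternatives were median-of-ratios scaling, a pseudocount of 0.1, no filters, other name rules and leaving out each fly.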

Additional observations from a re-analysis of the deposited data

How the results depend on the processing

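Of the alternatives to the member counts, medians, shares and ratios, 71 stayed within a set limit and 3 did not, all of them leaving out 1 fly. The limit was 1.5-fold for counts, the SD between flies for the share and an unchanged sign of the mean log2 for ratios. For the median differences it was 0.56, the members' median SD, so a change of sign could pass. For the median SD it was the SD of the values found leaving out 1 fly at a time. Leaving out 1 fly at a time, the number of variable members ranged from 3 to 4 against 5, with the 3 found without fly 3. The median SD between flies of members ranged from 0.24 (without fly 3) to 0.66, against 0.56. The median difference of members in fly 2 ranged from -0.87 (against fly 3 alone) to 0.18 (against fly 1 alone), against -0.26. The share of FPKM held by the members was 0.260% without fly 3 and 0.565% without fly 1, against 0.447%. It was 0.635% without the 10 most abundant unigenes and 0.232% without omega-amidase DN8655, a setting chosen after seeing the data. The limit for the share was wide, and 0.232% lay within it. Searching all titles of a best hit added no member, so those alternatives among the 71 could not differ. Leaving out amino-sugar aminotransferases or folylpolyglutamate synthase could not change the number of variable members, since none of them was variable.

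Omega-amidase DN8655 and uricase were variable under each alternative run. The branched-chain aminotransferase (TRINITY_DN806_c0_g1_i13) was no longer variable without fly 3 (1.03-fold, in FPKM plus the pseudocount as for the others), cytoplasmic glutamine synthetase (TRINITY_DN8528_c0_g1_i7) without fly 2 (1.81-fold), and purine nucleoside phosphorylase (TRINITY_DN3177_c0_g1_i11) without fly 1 (1.88-fold) or fly 3 (2.95-fold). Allantoinase (TRINITY_DN9712_c0_g1_i22) became variable with a pseudocount of 0.1 (4.39-fold against 3.47-fold). No paired analysis was possible because all flies belong to 1 group, so no groups share replicate numbers. The enzyme ratios were taken within flies. Values at 1 to 3 fragments, of uricase and the xanthine dehydrogenase-like TRINITY_DN22799_c1_g3_i10 in fly 1 and cytoplasmic glutamine synthetase in fly 2, are limited by depth.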

Other observations

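Low unigenes of nitrogen disposal outside the members were chosen after their values were seen. Argininosuccinate lyase (TRINITY_DN13394_c0_g1_i6), the enzyme that forms arginine in the urea cycle of vertebrates, was at 0.595, 4.36 and 8.02 FPKM, and argininosuccinate synthase (TRINITY_DN31082_c0_g1_i3), the step before it, at 1.08, 5.05 and 6.52. Fly 1 was lowest for both. Ornithine decarboxylase 1-like (TRINITY_DN4721_c1_g1_i21), the first enzyme of polyamine synthesis, was at 0.227, 1.04 and 6.39 FPKM. Aminomethyltransferase (TRINITY_DN25696_c0_g1_i3), a partner of the glycine cleavage H protein, was at 0.285, 1.79 and 7.49 FPKM. Ammonium transporter Rh type B (TRINITY_DN38431_c0_g1_i15) was at 1.36 FPKM in fly 1, listed at 0 in fly 2 and at 6.88 in fly 3. Its lowest fly was fly 2, as for glutaminase and cytoplasmic glutamine synthetase. All of these were highest in fly 3, as were 66.1% of all unigenes averaging FPKM 1 or more. Others went the other way. Of the 12 amide nitrogen unigenes, 6 were highest in fly 3 and 5 in fly 1. Among the latter, asparagine synthetase [glutamine-hydrolyzing] 2-like (TRINITY_DN3084_c0_g1_i4) was at 7.24, 0.524 and 0.746 FPKM.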
